A study of Mus musculus with 12 samples.

Results

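The p53 target genes described here are Trp53, the gene of p53 itself, and 8 genes known as its targets, namely Mdm2, Ccng1, Cdkn1a, Zmat3, Sesn1, Eda2r, Phlda3 and Trp53inp1. They were chosen by symbol with earlier results of these data known, and the 9 were found once each among the 56748 genes of the count table. Of the 9, 8 passed a filter on low counts that kept 12547 genes in all, and Phlda3 did not. Poly(A) RNA was sequenced from 3 libraries of Sf3b1 K700E/+ cells and 3 libraries of Sf3b1 +/+ cells, all after 24 h of estradiol. Both are edited clones of G1E-ER4, a murine proerythroblastic line without endogenous GATA1 in which a GATA1-estrogen receptor fusion drives erythroid maturation once estradiol is added. Sf3b1 encodes a core subunit of the U2 snRNP, which recognizes the branch point of introns. Each genotype is 1 clone, so that genotype and clone cannot be told apart. The labels do not say whether the libraries of a genotype came from separate cultures, and p-values then measure only the spread between these libraries, which may be technical. Samples from before estradiol were not analysed here.

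p53 is a transcription factor that is kept at low levels by Mdm2, a ubiquitin ligase that marks it for degradation and is itself one of its targets. DNA damage, stalled replication or disturbed ribosome assembly stabilize the protein, and it then binds paired half-sites in DNA and raises genes that halt the cell cycle, repair DNA, change metabolism or kill the cell. In erythroid progenitors, p53 is best known for the anemias that follow from defects of ribosomal proteins. Since p53 is controlled mainly as a protein, the level of Trp53 mRNA is not a measure of its activity.

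Total counts were 44045337 to 50077827 in Sf3b1 K700E/+ libraries and 38785471 to 40702174 in Sf3b1 +/+ libraries. Levels below are CPM, TMM-normalised counts per 1000000. A gene passed when edgeR's quasi-likelihood test gave a Benjamini-Hochberg adjusted p under 0.05, and a differentially expressed gene (DEG) also had an absolute log2 fold change above 1. Replicate 1 stood apart from the other libraries in both genotypes. Sf3b1 itself averaged 754 ± 11.97 CPM in Sf3b1 K700E/+ cells and 747 ± 13.9 CPM in Sf3b1 +/+ cells (SD, n = 3 each). Gata1 reads, which can include those of the fusion gene, averaged 320.1 ± 4.15 CPM in Sf3b1 K700E/+ cells and 160 ± 14.0 CPM in Sf3b1 +/+ cells (log2 fold change 1.00, edgeR adjusted p = 9.44e-06). Of 11 erythroid marker genes, none was at 0 in any library. The summed level of 14 granulocyte and macrophage markers was 1.38 to 2.03 CPM in Sf3b1 K700E/+ libraries and 13.6 to 40.4 CPM in Sf3b1 +/+ libraries, with 7 to 9 and 4 to 6 of the 14 at 0. That of 10 mast cell, basophil and eosinophil markers was 1.018 to 3.50 CPM in Sf3b1 K700E/+ libraries and 10.4 to 35.4 CPM in Sf3b1 +/+ libraries, with 6 to 7 and 4 to 6 at 0. That of 8 megakaryocyte markers was 27.7 to 53.8 CPM in Sf3b1 K700E/+ libraries and 57.9 to 106 CPM in Sf3b1 +/+ libraries. All 5 tested granulocyte and macrophage markers were lower and 4 were DEGs. These 4, Lyz2, Cybb, Adgre1 and Mmp8, passed the filter on low counts only through the Sf3b1 +/+ libraries. They could only be called lower, so the counts are not set beside the shares of all genes tested. With the filter of the study only Cd68 was tested, and it was lower. The lysozyme gene Lyz2, the oxidase gene Cybb and the neutrophil collagenase gene Mmp8 had 1, 2 and 4 reads over the Sf3b1 K700E/+ libraries, against 1035, 1074 and 717 reads over the Sf3b1 +/+ libraries. Of the other 9, Elane, S100a8 and Ly6g were at 0 in every library. The eosinophil gene Prg2 was lower too, with 116 reads over the Sf3b1 K700E/+ libraries and 2656 over the Sf3b1 +/+ libraries. The part of these markers in the results below was not tested.

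The paired half-sites that p53 binds were looked for first, in windows near transcription starts only. The windows searched reach from 250 bases before to 50 after each transcription start in RefSeq (GRCm38.p6), and 7 of the 9 genes had one. The p53 consensus, 2 half-sites of 10 bases with no gap, was searched on both strands with at most 1 mismatch and with the core letters CNNG intact in both half-sites, a rule chosen after the sequences were seen. It matched in 22 of 32817 windows (0.067%), and 2 of these 22 belonged to the 9 genes. They are shown because they lie in front of Cdkn1a and Ccng1, which turn out below to be among the genes that were lower in the mutant. The match is in capitals.
Cdkn1a (GRCm38.p6, chr17:29090868-29090978, + strand, match 51 bases before the upstream one of 2 annotated starts): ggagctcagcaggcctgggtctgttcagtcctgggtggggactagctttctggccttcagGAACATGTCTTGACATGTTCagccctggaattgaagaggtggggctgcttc
Ccng1 (GRCm38.p6, chr11:40755402-40755536, - strand, match 195 bases before the annotated start): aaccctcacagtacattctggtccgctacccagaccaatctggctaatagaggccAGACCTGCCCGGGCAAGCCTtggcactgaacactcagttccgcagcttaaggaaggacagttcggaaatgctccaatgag
The windows of 42 other p53 targets, listed below, held 2 more matches, in front of Rps27l and at the start of Gtse1. Trp53, Mdm2, Sesn1, Eda2r and Phlda3 had a window without a match, and sequence outside the windows was not searched. A match is a description of the letters and not evidence of binding in these cells.

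Trp53 mRNA was not called different between the genotypes in the main fit, which did not pair the libraries by replicate number. By contrast, 7 of its 8 targets were lower in Sf3b1 K700E/+ cells. All 7 passed the test, which 23.1% of the 12547 genes tested passed in that direction, and all 7 had every Sf3b1 K700E/+ library below every Sf3b1 +/+ library, as did 27.9% of all genes tested. Of the 7, 5 were DEGs (Ccng1, Cdkn1a, Zmat3, Eda2r and Trp53inp1), against 6.24% of all genes tested, and none of the 8 passed in the higher direction, in which 21.3% of all genes passed and 4.07% were DEGs. At an unadjusted threshold of 0.05, 1 of the 8, Trp53, was higher. The median log2 fold change of the 8 tested genes was -1.11, and that of all genes tested was -0.01. Since the set was chosen with earlier results of these data known, the shares set beside those of all genes are descriptions and not a test. The 7 genes were lower with an adjusted p under 0.05 under each alternative tried, including a fit without both libraries numbered 1.

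**Figure D1:**
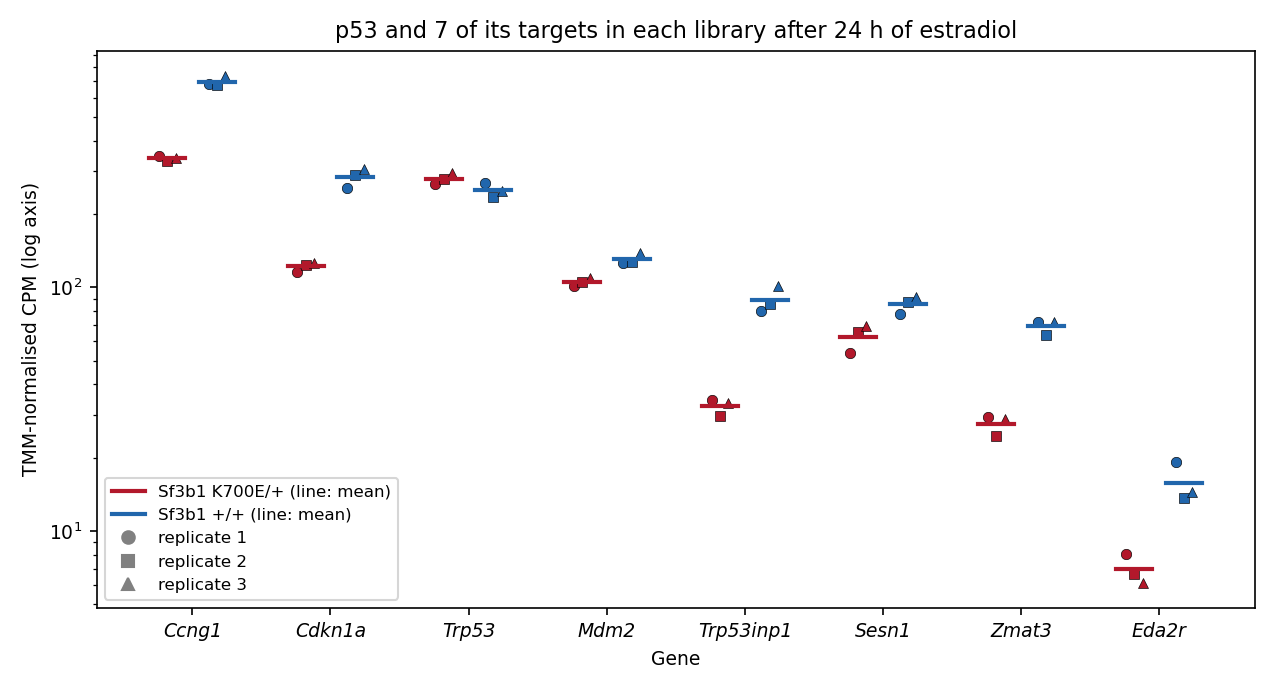
Level of each of the 8 tested genes in each library, as TMM-normalised CPM on a log axis. Sf3b1 K700E/+ libraries are red, Sf3b1 +/+ libraries are blue, the symbol gives the replicate and the line is the mean of 3 libraries. The genotypes overlap for Trp53 and are separate for the 7 targets, for example 116 to 126 CPM against 255 to 305 CPM for Cdkn1a.

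Trp53 (ENSMUSG00000059552, GRCm38 chr11:69580359-69591873) had 265, 278 and 295 CPM in Sf3b1 K700E/+ libraries, against 268, 235 and 249 CPM in Sf3b1 +/+ libraries. The lowest Sf3b1 K700E/+ library lay below the highest Sf3b1 +/+ library, so the genotypes overlapped. The log2 fold change was 0.16 (SE 0.07, edgeR adjusted p = 0.0881). It passed with the replicate number as a block (log2 fold change 0.16, edgeR adjusted p = 0.0358), without Sf3b1 +/+ replicate 1 (0.21, edgeR adjusted p = 0.0201) and without both libraries numbered 1 (0.25, edgeR adjusted p = 0.00324), each time higher in the mutant. Wrap53, the neighbouring gene that reads in the opposite direction and encodes a telomerase cofactor, averaged 37.3 ± 0.210 CPM in Sf3b1 K700E/+ cells and 35.0 ± 0.896 CPM in Sf3b1 +/+ cells (log2 fold change 0.09, edgeR adjusted p = 0.239). The processed pseudogene Trp53-ps, which can share reads with Trp53, had under 1 CPM in every library.

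Mdm2 and Ccng1 feed back on p53. Mdm2 (ENSMUSG00000020184, GRCm38 chr10:117688875-117710758), the main ubiquitin ligase of p53, had 102, 106 and 109 CPM in Sf3b1 K700E/+ libraries, against 127, 128 and 138 CPM in Sf3b1 +/+ libraries. The groups did not overlap, but the difference was the smallest of the 7, with a log2 fold change of -0.31 (SE 0.06, edgeR adjusted p = 0.00282). Ccng1 (ENSMUSG00000020326, GRCm38 chr11:40748552-40755311) encodes cyclin G1, which recruits a phosphatase that activates Mdm2. It had 345, 331 and 339 CPM in Sf3b1 K700E/+ libraries, against 686, 676 and 737 CPM in Sf3b1 +/+ libraries, so that the mutant level was 48.3% of the other (log2 fold change -1.05, SE 0.06, edgeR adjusted p = 3.33e-06). Spread within a genotype was small beside this difference, at 6.89 CPM in Sf3b1 K700E/+ cells and 32.5 CPM in Sf3b1 +/+ cells (SD, n = 3 each).

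Cdkn1a and Zmat3 act on the cell cycle and on RNA. Cdkn1a (ENSMUSG00000023067, GRCm38 chr17:29090976-29100727) encodes p21, the inhibitor of cyclin-dependent kinases through which p53 halts the cell cycle. It had 116, 124 and 126 CPM in Sf3b1 K700E/+ libraries, against 255, 290.1 and 305 CPM in Sf3b1 +/+ libraries. The highest mutant library was thus below the lowest other library, with a log2 fold change of -1.21 (SE 0.08, edgeR adjusted p = 5.65e-06). Zmat3 (ENSMUSG00000027663, GRCm38 chr3:32334792-32366014) encodes a zinc finger protein that binds RNA and influences splicing and mRNA stability. It had 29.3, 24.5 and 28.9 CPM in Sf3b1 K700E/+ libraries, against 72.0, 63.5 and 72.4 CPM in Sf3b1 +/+ libraries (log2 fold change -1.33, SE 0.09, edgeR adjusted p = 7.81e-06). In both genotypes replicate 2 was the lowest for Zmat3, whereas replicate 1 was the lowest for Cdkn1a. A transcript model of unknown type, AC167363.2, lies on the opposite strand within Cdkn1a, and whether the counting used strand is not given in the sources used here.

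The remaining 4 genes take part in stress responses, death and signalling. Trp53inp1 (ENSMUSG00000028211, GRCm38 chr4:11156431-11174379), which promotes p53-dependent death and autophagy, showed the largest difference of the 8 tested genes. It had 34.4, 29.7 and 33.6 CPM in Sf3b1 K700E/+ libraries, against 80.1, 85.7 and 101.2 CPM in Sf3b1 +/+ libraries (log2 fold change -1.45, SE 0.10, edgeR adjusted p = 8.14e-06). The mutant level was 36.6% of the other. Eda2r (ENSMUSG00000034457, GRCm38 chrX:97333840-97377216), a receptor of the TNF receptor family, was the least abundant of the 8 tested genes. It had 8.08, 6.66 and 6.15 CPM in Sf3b1 K700E/+ libraries, against 19.1, 13.7 and 14.4 CPM in Sf3b1 +/+ libraries (log2 fold change -1.18, SE 0.16, edgeR adjusted p = 3.30e-04). It rests on 263 to 405 reads per mutant library and 562 to 759 reads per Sf3b1 +/+ library, and replicate 1 was the highest in both genotypes. Sesn1 (ENSMUSG00000038332, GRCm38 chr10:41809935-41908424), a sestrin that restrains mTORC1, had 53.7, 65.6 and 69.3 CPM in Sf3b1 K700E/+ libraries, against 77.7, 86.8 and 91.4 CPM in Sf3b1 +/+ libraries. The groups were separate but closer than for most of the others, with a log2 fold change of -0.44 (SE 0.10, edgeR adjusted p = 0.00703), and another such model, 9930024M15Rik, overlaps it on the same strand. Phlda3 (ENSMUSG00000041801, GRCm38 chr1:135766119-135769136), an inhibitor of AKT, had 0 reads in the 3 Sf3b1 K700E/+ libraries and 1 read in all in Sf3b1 +/+ libraries. A count of 0 allows up to 3 reads, or 0.0599 to 0.0681 CPM per Sf3b1 K700E/+ library by counting error alone, so no difference was detectable for Phlda3 at this depth.

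Levels of different genes were compared as mean CPM per kilobase of annotated exon (GENCODE M21). In Sf3b1 K700E/+ cells the order was Ccng1 (96.3), Trp53 (69.1), Cdkn1a (34.4), Mdm2 (20.7), Sesn1 (15.8), Trp53inp1 (5.03), Zmat3 (2.41) and Eda2r (1.18). In Sf3b1 +/+ cells it was Ccng1 (199), Cdkn1a (79.7), Trp53 (61.9), Mdm2 (25.8), Sesn1 (21.4), Trp53inp1 (13.7), Zmat3 (6.06) and Eda2r (2.67). Trp53 and Cdkn1a therefore changed places, and the order of the other genes was the same. No library of one gene overlapped those of its neighbour in either order: in Sf3b1 K700E/+ cells, for example, the libraries of Mdm2 ran from 20.01 to 21.4 and those of Sesn1 from 13.5 to 17.4 CPM per kilobase. The exon lengths come from an older annotation than the counts may, and isoform use can differ.

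Across the 6 libraries, the genes whose log2 CPM followed that of Cdkn1a most closely, among 8389 genes at 5 CPM or more in every library, were Ephx2, a soluble epoxide hydrolase (r = 0.9995), ENSMUSG00000120166, for which the table gives no symbol (r = 0.9993), Zfp810, a zinc finger gene (r = 0.9991), Gdi2, which retrieves Rab GTPases from membranes (r = 0.999), and Zmynd8, a chromatin reader (r = 0.999). Among the genes of the set, Ccng1 followed it with r = 0.991 and Trp53inp1 with r = 0.990, then Mdm2 with 0.977, Zmat3 with 0.973, Sesn1 with 0.912, Eda2r with 0.902 and Trp53 with -0.771. These r are descriptions over 6 libraries that share 2 clones, and 917 of the 8389 genes had r above 0.95.

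The set was next read against 51 other genes known as p53 targets, of which 39 were tested. In Sf3b1 K700E/+ cells 20 of the 39 were lower (51.3%, against 23.1% of all genes tested) and 3 were higher (7.69%, against 21.3%), and 16 did not pass. Of the 39, 7 were lower DEGs, against 6.24% of all genes tested, and no higher gene was a DEG. Cd82 and Lif, both among these 7, passed the filter on low counts only through the Sf3b1 +/+ libraries and could only be called lower. With the filter of the study, 36 of these targets were tested, 18 were lower and 3 were higher. The median log2 fold change of the 39 was -0.40. This list too was chosen with earlier results of these data known, so its shares are descriptions. The genotypes were separate for 21 of the 39 in the lower direction and for 5 in the higher direction, against 27.9% and 26.4% of all genes tested. Of the 12 genes not tested, 6 had no read in any library.

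**Figure D2:**
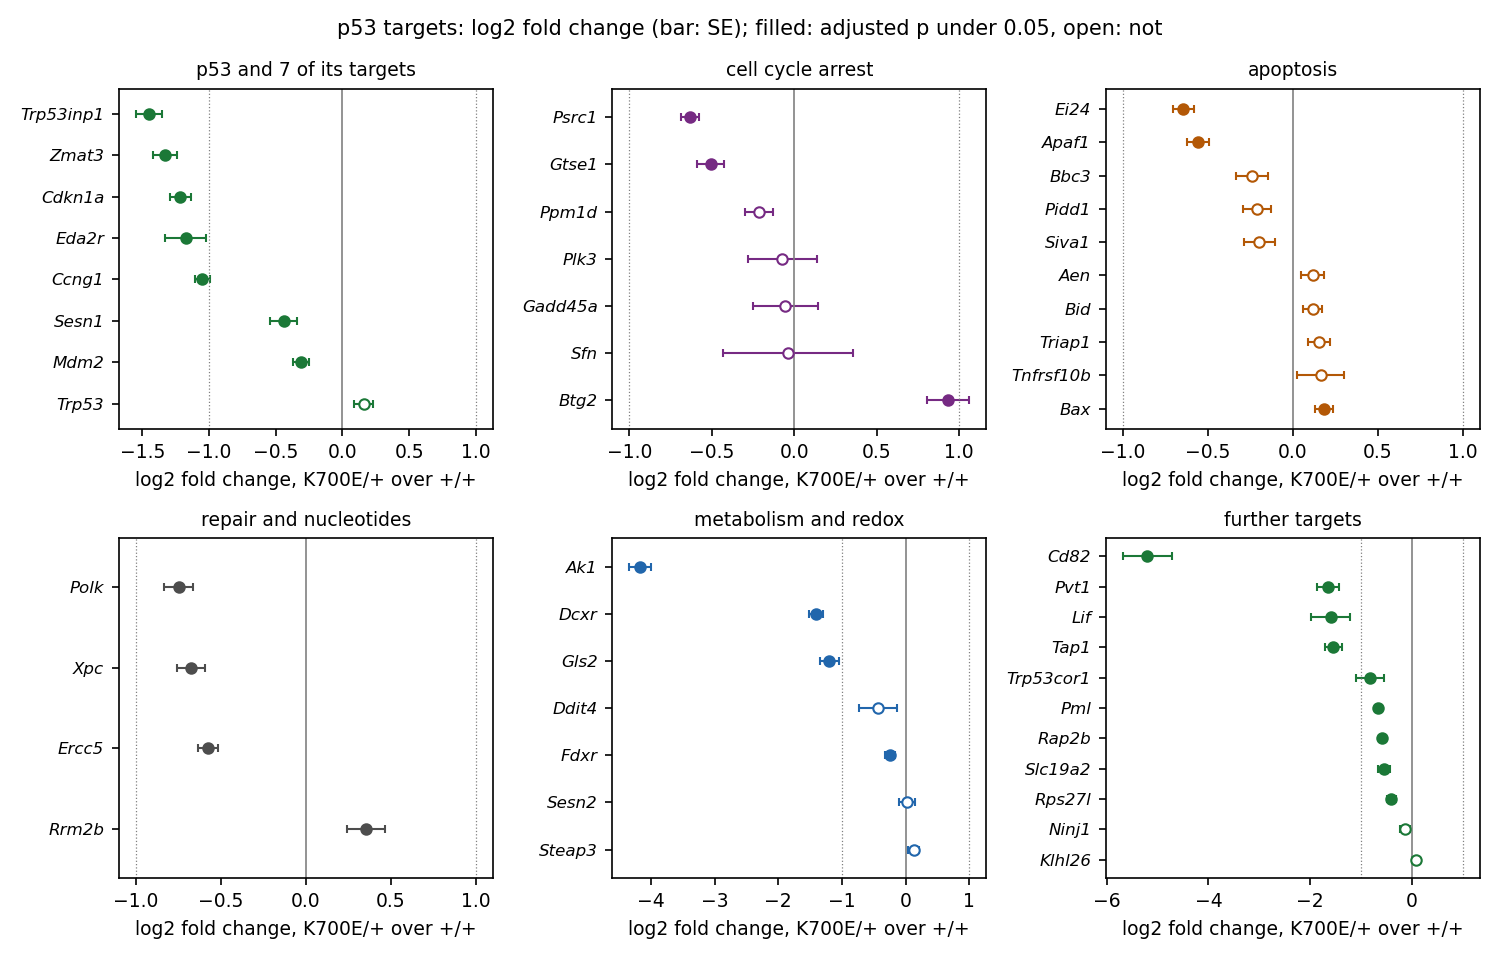
Log2 fold change, Sf3b1 K700E/+ over Sf3b1 +/+, with its SE, for the 8 tested genes of the set and 39 other p53 targets grouped by role. Filled points passed the test, open points did not, and dotted lines mark -1 and 1. Points lie mostly left of 0 in the set, in repair and among the further targets, and on both sides in the apoptosis group, where the axis spans a smaller range than in the lower right panels.

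Among 7 tested genes of cell cycle arrest, 2 were lower (28.6%) and 1 was higher (14.3%), against 23.1% and 21.3% of all genes tested. Psrc1, a microtubule-associated protein, averaged 88.9 ± 2.89 CPM in Sf3b1 K700E/+ cells and 138 ± 3.65 CPM in Sf3b1 +/+ cells (SD, n = 3 each, log2 fold change -0.63, edgeR adjusted p = 3.63e-05). Gtse1, which moves p53 out of the nucleus in the G2 phase, had a log2 fold change of -0.51 (edgeR adjusted p = 0.00111). Btg2, an antiproliferative factor that promotes the shortening of mRNA tails, was the higher one. It had 78.8, 88.0 and 105 CPM in Sf3b1 K700E/+ libraries, against 40.4, 47.8 and 54.2 CPM in Sf3b1 +/+ libraries (log2 fold change 0.93, SE 0.13, edgeR adjusted p = 3.94e-04), and it passed the DEG threshold once Sf3b1 K700E/+ replicate 1 (1.03) or Sf3b1 +/+ replicate 3 (1.04) was left out. Plk2, Rprm and Ptp4a3 had no read in any library, and these and the other genes named for want of reads were chosen after their values were seen.

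Of 10 tested genes of apoptosis, 2 were lower and 1 was higher, and 7 did not pass (70.0%, against 55.6% of all genes tested). With the replicate number as a block, 5 were lower and 2 were higher, and without both libraries numbered 1, 4 were lower and 4 were higher. Ei24, a protein of the endoplasmic reticulum, averaged 85.1 ± 2.72 CPM in Sf3b1 K700E/+ cells and 133 ± 8.29 CPM in Sf3b1 +/+ cells (SD, n = 3 each, log2 fold change -0.64, edgeR adjusted p = 6.47e-05). Apaf1, the scaffold of the apoptosome, had a log2 fold change of -0.56 (edgeR adjusted p = 1.56e-04). Bax, which opens the outer mitochondrial membrane, averaged 122 ± 3.11 CPM in Sf3b1 K700E/+ cells and 108 ± 1.28 CPM in Sf3b1 +/+ cells and was higher by a log2 fold change of 0.18 (edgeR adjusted p = 0.0207). Bax no longer passed when Sf3b1 K700E/+ replicate 1 (edgeR adjusted p = 0.0510) or 3 (0.0701), or Sf3b1 +/+ replicate 2 (0.0590) or 3 (0.0619), was left out. Perp and Pmaip1 had no read in any library, and Fas had 1 read in Sf3b1 +/+ replicate 2 and none in the others.

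In the main fit, 3 of the 4 genes of repair and nucleotide supply were lower and 1 was higher. Of all genes tested, 23.1% were lower and 21.3% were higher. Polk, a polymerase that copies past damaged bases, averaged 18.97 ± 0.487 CPM in Sf3b1 K700E/+ cells and 31.9 ± 2.82 CPM in Sf3b1 +/+ cells (SD, n = 3 each, log2 fold change -0.75, edgeR adjusted p = 1.28e-04). The nucleotide excision repair genes Xpc, a damage sensor, and Ercc5, an endonuclease, had log2 fold changes of -0.68 and -0.58 (edgeR adjusted p = 2.08e-04 and 7.69e-05). Rrm2b, the ribonucleotide reductase subunit of resting cells, was higher, at 12.01 ± 1.10 CPM in Sf3b1 K700E/+ cells and 9.39 ± 0.747 CPM in Sf3b1 +/+ cells (log2 fold change 0.36, edgeR adjusted p = 0.0272). Rrm2b no longer passed when Sf3b1 K700E/+ replicate 1 (edgeR adjusted p = 0.0602) or 2 (0.107), Sf3b1 +/+ replicate 1 (0.0526) or 3 (0.0668), or both libraries numbered 1 (0.0561) were left out.

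Of 7 tested genes of metabolism and redox balance, 4 were lower (57.1%, against 23.1% of all genes tested). Of these 4, 3 were DEGs, as were 6.24% of all genes tested in that direction. Ak1, an adenylate kinase, had 0.439, 0.468 and 0.327 CPM in Sf3b1 K700E/+ libraries, against 7.26, 7.29 and 7.87 CPM in Sf3b1 +/+ libraries (log2 fold change -4.17, SE 0.17, edgeR adjusted p = 5.96e-07). Dcxr, a reductase of sugars and carbonyls, had 13.6, 14.5 and 15.3 CPM in Sf3b1 K700E/+ libraries, against 32.8, 42.5 and 39.9 CPM in Sf3b1 +/+ libraries (log2 fold change -1.41, SE 0.11, edgeR adjusted p = 1.48e-05). Gls2, the glutaminase of mitochondria, averaged 2.31 ± 0.318 CPM in Sf3b1 K700E/+ cells and 5.29 ± 0.316 CPM in Sf3b1 +/+ cells (log2 fold change -1.20, edgeR adjusted p = 2.04e-04). The 3 DEGs were thus at low to moderate levels, and Ak1 was close to silent in the mutant clone. Of 11 tested genes with further roles, 9 were lower (81.8%, against 23.1% of all genes tested) and none was higher. Of the 9, 4 were DEGs, as were 6.24% of all genes tested in that direction. Among these 4, Cd82 and Lif passed the filter on low counts only through the Sf3b1 +/+ libraries, so they could only be called lower. With the filter of the study neither was tested, and 7 of 9 genes were lower. Cd82, a tetraspanin, had 5 reads over the Sf3b1 K700E/+ libraries and 175 reads over the Sf3b1 +/+ libraries (log2 fold change -5.20, edgeR adjusted p = 4.51e-05). Tap1, a peptide transporter of antigen presentation, averaged 7.19 ± 1.74 CPM in Sf3b1 K700E/+ cells and 20.9 ± 2.06 CPM in Sf3b1 +/+ cells (log2 fold change -1.54, edgeR adjusted p = 9.25e-05). Pvt1, a long noncoding RNA beside Myc, and the cytokine gene Lif had log2 fold changes of -1.64 and -1.60 (edgeR adjusted p = 3.13e-04 and 0.00886), and Lif rests on 24 reads over the Sf3b1 K700E/+ libraries and 65 over the Sf3b1 +/+ libraries. Trp53cor1, the noncoding RNA next to Cdkn1a, averaged 3.75 ± 1.11 CPM in Sf3b1 K700E/+ cells and 6.61 ± 1.99 CPM in Sf3b1 +/+ cells (log2 fold change -0.82, edgeR adjusted p = 0.0351). Its groups overlapped, and it did not pass once Sf3b1 K700E/+ replicate 1 (edgeR adjusted p = 0.0964) or 3 (0.0844), or Sf3b1 +/+ replicate 2 (0.129) or 3 (0.106), was left out.

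The genes that control p53 were called in both directions. Of 23 tested regulators, 5 were lower (21.7%) and 7 were higher (30.4%), against 23.1% and 21.3% of all genes tested, with a median log2 fold change of 0.07 and no DEG. The count of higher regulators fell to 3 without Sf3b1 K700E/+ replicate 1, to 3 without Sf3b1 +/+ replicate 2, and to 2 (Atr and Hipk2) without Sf3b1 +/+ replicate 3. Among those that hold p53 down, Mdm4, the partner of Mdm2 that blocks the activation domain of p53, had 328, 325 and 311 CPM in Sf3b1 K700E/+ libraries, against 397, 430 and 441 CPM in Sf3b1 +/+ libraries (log2 fold change -0.40, SE 0.06, edgeR adjusted p = 7.22e-04). Rchy1, another ubiquitin ligase of p53, had a log2 fold change of -0.27 (edgeR adjusted p = 0.00779). Usp7, which removes ubiquitin from Mdm2, and Sirt1, which deacetylates p53, were higher by 0.26 and 0.41 on the log2 scale (edgeR adjusted p = 0.0132 and 0.0217). Usp7 did not pass once Sf3b1 +/+ replicate 3 was left out (edgeR adjusted p = 0.0512), nor Sirt1 once Sf3b1 K700E/+ replicate 1 (0.0666) or Sf3b1 +/+ replicate 2 (0.0696) or 3 (0.0774) was left out. Among those that raise or assist p53, the acetyltransferase gene Kat5 and Trp53bp1, a reader of broken DNA ends, were lower (log2 fold change -0.58 and -0.62, edgeR adjusted p = 2.51e-04 and 3.13e-04). Hipk2, a kinase of p53, averaged 181 ± 10.2 CPM in Sf3b1 K700E/+ cells and 115 ± 16.6 CPM in Sf3b1 +/+ cells (SD, n = 3 each, log2 fold change 0.65, edgeR adjusted p = 6.60e-04), and Atr, the replication stress kinase, was higher by 0.33 (edgeR adjusted p = 0.00195). Cdkn2a, the gene of the Mdm2 inhibitor p19Arf, had no read in any library.

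**Figure D3:**
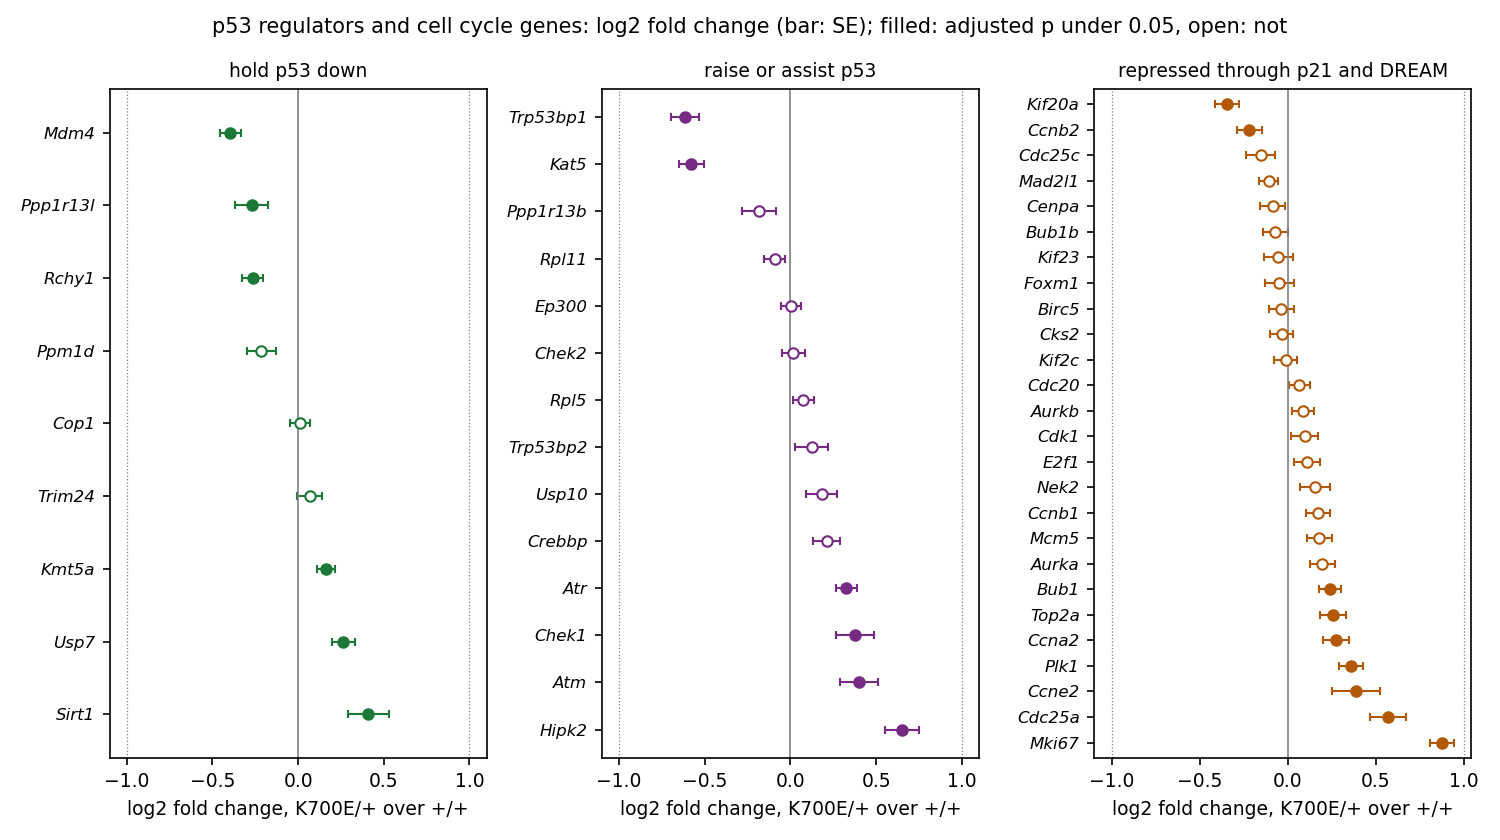
Log2 fold change, Sf3b1 K700E/+ over Sf3b1 +/+, with its SE, for regulators that hold p53 down, regulators that raise or assist it and cell cycle genes repressed through p21 and DREAM. Filled points passed the test and open points did not. The points lie on both sides of 0 in each panel, and all lie between -1 and 1.

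p21 lowers many cell cycle genes by way of DREAM, a repressor complex, and 26 such genes were all tested. Of these, 7 were higher (26.9%, against 21.3% of all genes tested) and 2 were lower (7.69%, against 23.1%) in Sf3b1 K700E/+ cells, and 17 did not pass. The count of higher genes depended on single libraries: it was 4 without Sf3b1 K700E/+ replicate 2, 13 without Sf3b1 +/+ replicate 1, 4 without Sf3b1 +/+ replicate 2 and 3 (Mki67, Cdc25a and Plk1) without Sf3b1 +/+ replicate 3. It was 11 with the replicate number as a block and 14 without both libraries numbered 1. Ccnb2, a mitotic cyclin and 1 of the 2 lower genes, no longer passed when Sf3b1 K700E/+ replicate 1 or 3 or Sf3b1 +/+ replicate 1 or 2 was left out (edgeR adjusted p = 0.0635 to 0.145). Mki67, the proliferation marker Ki-67, had 1776, 1702 and 1813 CPM in Sf3b1 K700E/+ libraries, against 979, 1011 and 893 CPM in Sf3b1 +/+ libraries (log2 fold change 0.88, SE 0.07, edgeR adjusted p = 1.70e-05). Cdc25a, a phosphatase that activates cyclin-dependent kinases, and Plk1, a mitotic kinase, were higher by 0.57 and 0.36 on the log2 scale (edgeR adjusted p = 0.00178 and 0.00224). Kif20a, a mitotic kinesin, was lower, with a log2 fold change of -0.34 (edgeR adjusted p = 0.00313). The median log2 fold change of the 26 was 0.09.

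Of 14 paralogs of the 9 genes, 7 were tested. Of these, 2 were lower (28.6%) and 1 was higher (14.3%), against 23.1% and 21.3% of all genes tested. The other 4 did not pass (57.1%, against 55.6% of all genes tested). Phlda1, a relative of the silent Phlda3, had 29.1, 26.2 and 27.5 CPM in Sf3b1 K700E/+ libraries, against 6.65, 5.05 and 4.99 CPM in Sf3b1 +/+ libraries (log2 fold change 2.31, SE 0.12, edgeR adjusted p = 2.73e-06). Zmat1, a relative of Zmat3, averaged 1.09 ± 0.248 CPM in Sf3b1 K700E/+ cells and 2.59 ± 0.575 CPM in Sf3b1 +/+ cells (log2 fold change -1.26, edgeR adjusted p = 0.00200), and Mdm4 is described above. Ccng2, the other cyclin G, averaged 38.6 ± 11.5 CPM in Sf3b1 K700E/+ cells and 48.2 ± 18.0 CPM in Sf3b1 +/+ cells, which overlapped (log2 fold change -0.32, edgeR adjusted p = 0.371). With the replicate number as a block, Ccng2 passed (log2 fold change -0.30, edgeR adjusted p = 0.00113). Cdkn1b, which encodes p27, and the sestrin gene Sesn2 had log2 fold changes of 0.09 and 0.02 (edgeR adjusted p = 0.617 and 0.893). Trp53inp2, an autophagy gene, had -0.26 (edgeR adjusted p = 0.362), and passed without Sf3b1 +/+ replicate 1 (-0.48, edgeR adjusted p = 0.0220) and without both libraries numbered 1 (-0.37, edgeR adjusted p = 0.0306). The p53 relatives Trp63 and Trp73 were not tested, and Trp63 had no read in any library.

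Splicing was read from the deposited events, each a longer and a shorter path through a transcript, with PSI the share of the longer path. A differentially spliced event (DSE) had an adjusted p under 0.05 for the path by genotype term of edgeR and a PSI difference above 0.10. Of 18114 tested events, 6.33% were DSEs, and none of the 9 events in the set was one. The lowest adjusted p of the 9 was 0.417. Mdm2, Trp53 and Trp53inp1 held these events, and the table has none in Cdkn1a, Ccng1, Zmat3, Sesn1, Eda2r and Phlda3. At an unadjusted p under 0.05, 0 of the 9 were called by edgeR and 0 by limma on logit PSI.

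Trp53 had 5 of the events. One is a pair of acceptors 96 bases apart in the coding sequence (GRCm39 chr11:69481549-69482214), in the part of the gene that encodes the carboxy terminus, whose use is known to give the alternatively spliced form of mouse p53. PSI of the longer form was 0.135, 0.132 and 0.129 in Sf3b1 K700E/+ libraries, against 0.135, 0.106 and 0.141 in Sf3b1 +/+ libraries, so that the groups overlapped (difference 0.00447, edgeR adjusted p = 0.894). It rests on 768 longer and 2215 shorter reads in Sf3b1 K700E/+ cells and on 566 and 1693 in Sf3b1 +/+ cells. The other 4 events of Trp53 overlap each other outside the coding sequence (GRCm39 chr11:69476861-69477755), share reads and use sites of which only 1 is annotated. The largest difference was that of an alternative donor of 388 bases, with PSI of 0.632, 0.610 and 0.557 in Sf3b1 K700E/+ libraries, against 0.681, 0.755 and 0.669 in Sf3b1 +/+ libraries. The groups were separate for this event, but only 50 reads of Sf3b1 K700E/+ cells and 18 reads of Sf3b1 +/+ cells took the shorter path, and the difference of -0.10 did not pass (edgeR adjusted p = 0.417).

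The 3 events of Mdm2 overlap around 1 exon (GRCm39 chr10:117541095-117545890). Skipping of an 85-base coding exon gave PSI of 0.496, 0.599 and 0.607 in Sf3b1 K700E/+ libraries, against 0.469, 0.604 and 0.610 in Sf3b1 +/+ libraries (difference 0.01, edgeR adjusted p = 0.961). Replicate 1 was the lowest in both genotypes, and the replicates within a genotype differed more than the genotypes. An intron of 161 bases was retained at a PSI of 0.0531 ± 0.0147 in the Sf3b1 K700E/+ libraries and 0.0576 ± 0.0147 in the Sf3b1 +/+ libraries (SD, n = 3 each, edgeR adjusted p = 0.896), and an alternative donor of 246 bases had 0.299 ± 0.0433 in the Sf3b1 K700E/+ libraries and 0.289 ± 0.0586 in the Sf3b1 +/+ libraries (edgeR adjusted p = 0.905). For this donor the PSI deposited by the authors was lower, with means of 0.14 in the Sf3b1 K700E/+ libraries and 0.143 in the Sf3b1 +/+ libraries. A 38-base exon outside the coding sequence of Trp53inp1 (GRCm39 chr4:11165407-11169750) had PSI of 0.435 ± 0.0673 in the Sf3b1 K700E/+ libraries and 0.468 ± 0.0207 in the Sf3b1 +/+ libraries (edgeR adjusted p = 0.808).

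**Figure D4:**
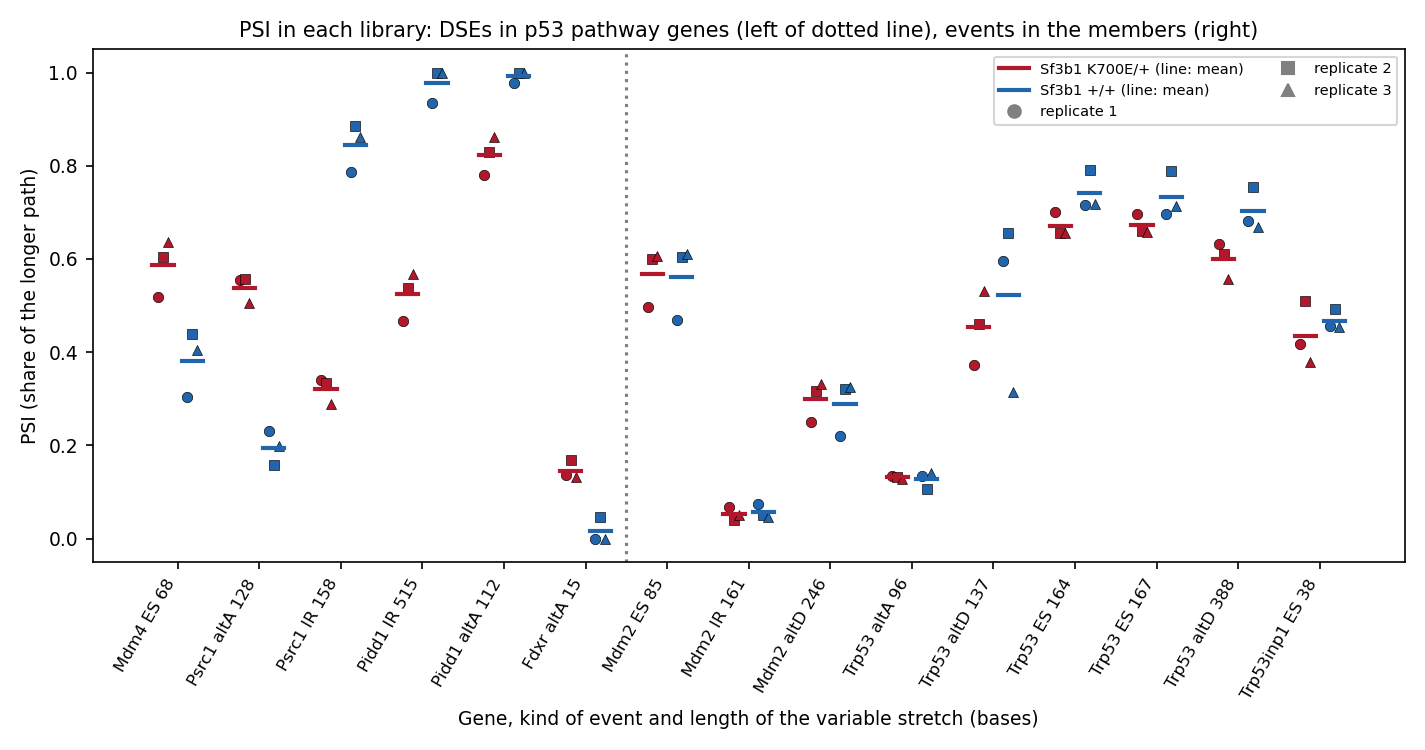
PSI, the share of the longer path, in each library for 6 DSEs in Mdm4, Psrc1, Pidd1 and Fdxr (left of the dotted line) and for the 9 events in Mdm2, Trp53 and Trp53inp1 (right). Event kinds are exon skipping (ES), intron retention (IR), alternative acceptor (altA) and alternative donor (altD), and the number is the length of the variable stretch in bases. Red and blue points are separate for the DSEs, for example 0.519 to 0.637 against 0.303 to 0.439 for Mdm4, and mostly overlap for the events on the right.

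Around the set, 11 of 88 tested events in other p53 targets (12.5%) and 1 of 33 in regulators (3.03%) were DSEs, against 6.33% of all events. The regulator is Mdm4, where a coding exon of 68 bases is included or skipped (GRCm39 chr1:132931590-132936915). Skipping this exon is known to give the short form Mdm4-S, and since its length is no multiple of the codon length it shifts the reading frame. The exon is shown in capitals, with 20 bases of the exon before and 20 of the exon after it, from GENCODE M21 (GRCm38 chr1:133004654-133004721, - strand).
Mdm4 exon: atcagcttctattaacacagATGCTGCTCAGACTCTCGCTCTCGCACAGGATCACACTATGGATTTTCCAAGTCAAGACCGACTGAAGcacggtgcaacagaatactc
Inclusion had PSI of 0.519, 0.604 and 0.637 in Sf3b1 K700E/+ libraries, against 0.303, 0.439 and 0.404 in Sf3b1 +/+ libraries, so that the groups were separate, with replicate 1 the lowest in both. The difference was 0.205 (edgeR adjusted p = 6.44e-04), from 802 longer and 309 shorter reads in Sf3b1 K700E/+ cells and 579 and 485 in Sf3b1 +/+ cells. With limma on logit PSI the adjusted p was 0.119 and the event was not called. The deposited PSI averaged 0.507 in the Sf3b1 K700E/+ libraries and 0.303 in the Sf3b1 +/+ libraries.

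The 11 DSEs in other p53 targets lie in 3 genes, and 8 of them overlap in 1 stretch of Psrc1 (GRCm39 chr3:108291171-108291729), so they are not independent. Retention of a 158-base intron of Psrc1 had PSI of 0.341, 0.335 and 0.289 in Sf3b1 K700E/+ libraries, against 0.787, 0.885 and 0.861 in Sf3b1 +/+ libraries (difference -0.523, edgeR adjusted p = 6.11e-12). In the same stretch, the longer form of an acceptor pair 128 bases apart had PSI of 0.554, 0.556 and 0.505 in Sf3b1 K700E/+ libraries, against 0.230, 0.158 and 0.198 in Sf3b1 +/+ libraries (difference 0.343, edgeR adjusted p = 2.95e-09). Between the 2 paths of the intron event, the spliced path was thus the larger share in the mutant and the retained path in the other clone. A donor pair 70 bases apart, which is among the 6 events below, gives a further path that this PSI does not count. Its longer form had PSI of 0.351 ± 0.00764 in the Sf3b1 K700E/+ libraries and 0.877 ± 0.0381 in the Sf3b1 +/+ libraries (SD, n = 3 each). The share of transcripts that keep the whole intron was not measured. The other 6 events of Psrc1 differed in the same stretch by PSI differences from -0.526 to 0.361, and limma on logit PSI did not call 1 of them, a donor pair 31 bases apart (adjusted p = 0.0695). Pidd1, a scaffold that activates caspase-2, had an intron path of 515 bases with an unannotated site (GRCm39 chr7:141022327-141022920). Its PSI was 0.468, 0.537 and 0.567 in Sf3b1 K700E/+ libraries, against 0.935, 1.00 and 1.00 in Sf3b1 +/+ libraries (difference -0.454, edgeR adjusted p = 2.22e-06). This PSI sets the longer path only against the path with the unannotated site, so it is not the share of transcripts that keep the intron. The deposited PSI averaged 0.297 in the Sf3b1 K700E/+ libraries and 0.96 in the Sf3b1 +/+ libraries. The shorter path had 48 reads over the Sf3b1 K700E/+ libraries and 2 over the Sf3b1 +/+ libraries, and the same reads carry a second DSE of Pidd1, an acceptor pair 112 bases apart (PSI difference -0.169). An overlapping intron of 403 bases with annotated sites (GRCm39 chr7:141022439-141022918) was retained at a much lower PSI. Its PSI was 0.0465 ± 0.0261 in the Sf3b1 K700E/+ libraries and 0.132 ± 0.0322 in the Sf3b1 +/+ libraries (SD, n = 3 each, edgeR adjusted p = 0.0045). The difference of -0.0852 was too small for a DSE. Fdxr, a mitochondrial ferredoxin reductase, used an unannotated acceptor 15 bases from the known one (GRCm39 chr11:115162151-115162523), in 8, 10 and 7 reads in Sf3b1 K700E/+ libraries, against 0, 3 and 0 reads in Sf3b1 +/+ libraries. The PSI difference of 0.131 (edgeR adjusted p = 0.00834) was not called in the fit that left out Sf3b1 +/+ replicate 3 (edgeR adjusted p = 0.0668), nor with limma (adjusted p = 0.0569). Fdxr mRNA was lower by a log2 fold change of -0.25 (edgeR adjusted p = 0.0339), and it did not pass when any 1 library other than Sf3b1 +/+ replicate 1 was left out (edgeR adjusted p of 0.0634 to 0.124) or with no filter on low counts (0.106).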

How the data were processed

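RNA of murine G1E-ER4 clones was compared between 3 Sf3b1 K700E/+ and 3 Sf3b1 +/+ libraries, all after 24 h of estradiol. The authors aligned the reads (75-bp paired ends, stranded poly(A) kit) with STAR 2.7.9, the labels name the build GRCm39, and a raw count per gene and library was deposited. The study's reporting summary names STAR for both mapping and counting of RNA-seq, beside a human genome, and the strand setting for these murine counts is not given in the sources used here. The authors also deposited packed read counts for both paths of 19323 splicing events found with KisSplice, and a PSI fraction per library. DESeq2 1.30.1 is named in the labels for the authors' own comparison, which was not used. Samples from before estradiol were not analysed here.

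Genes were filtered with filterByExpr, normalized by TMM and tested with edgeR 4.0.16 in R 4.3.3 (quasi-likelihood F test on genotype, Benjamini-Hochberg adjustment over 12547 genes). Event reads were summed over 2 read files per library. For PSI, the reads of the longer path were divided by (75 + variable bases) / 75, with 75 the read length. The reads of the shorter path were left as they were, and the longer path was taken as a share of both. An event needed 10 reads in every library, and edgeR tested path by genotype. The recomputed and deposited PSI correlated with r = 0.983 over 111546 values, and 69.6% lay within 0.05. Alternatives were RLE size factors, no filter, the filter of the study (20 normalized reads), DESeq2 1.42.0, limma 3.58.1 on logit PSI, a coverage of 20 reads, a PSI difference of 0.20, a replicate block and leaving out libraries. Leaving out both libraries numbered 1, setting the deposited PSI beside the recomputed one and counting the calls of the regulator, cell cycle and apoptosis lists under each setting were added after the data were seen. Steps were tested on simulated data.

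Deviations from the genotype means correlated between libraries of the same number (0.627, 0.484 and 0.480 over 8771 genes), so the numbers were taken to pair the libraries. The main fits did not use this pairing, which entered only as the replicate block among the alternatives. Libraries of 1 genotype differed beyond sampling noise (chi-square over degrees of freedom, 7.42 to 32.6). Named were the genes of the set, their tested paralogs and neighbours, the DEGs of each list or else its 4 lowest adjusted p among genes that passed, every tested event of the set, DSEs of the other lists, and the 5 genes most like Cdkn1a. The genes of the set and the lists, written from textbook knowledge, were chosen with earlier results of these data known, and 1 listed gene is not reported here. Sequences are from RefSeq (GRCm38.p6) and GENCODE M21 (GRCm38), and no coordinate was converted.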

Additional observations from a re-analysis of the deposited data

How the results depend on the processing

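Across normalizations, filters, DESeq2, the replicate block and the fits that left out libraries, the count of lower genes in the set stayed at 7 and that of lower DEGs at 5. Higher genes in the set numbered 0, and 1 (Trp53) with the replicate block and without both libraries numbered 1, and 0 to 1 when 1 library was left out. Of the other p53 targets, 18 to 25 were lower over all settings. Of these targets 3 were higher, with 1 to 3 when 1 library was left out and 6 without both libraries numbered 1, and higher DEGs numbered 0 to 1 (Btg2). The replicate block gave 25 lower and 4 higher among them. It changed no other call among the genes named for their level than those of Trp53 and Ccng2. Pidd1, named for its splicing, was called lower with the block but not in the main fit. Over all genes, DEGs fell to 491 lower and 285 higher with the filter of the study, against 783 lower and 511 higher, since fewer genes were tested. The 1146 DSEs became 479 at a PSI difference above 0.20, by construction, and 566 with limma on logit PSI, where the cause was not tested. No event of the set was a DSE under any alternative. No scaling moved the median of all genes by more than 0.1 on the log2 scale. With 3 libraries per genotype and 1 clone each, small differences such as those of Bax, Rrm2b, Fdxr and Sirt1 depend on single libraries, and reads of Phlda3, Cd82 and Lif are too few for a precise fold.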
